A study of Rattus norvegicus with 10 samples.

Results

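Somatostatin (Sst) interneuron nuclei were 162 of the 55863 nuclei that single-nucleus RNA-seq (snRNA-seq) gave from the dentate gyrus of 4 rats. They were chosen by their own readout. Of the 55401 nuclei with at least 500 unique molecular identifiers (UMIs, each the count of 1 captured RNA molecule) and at most 5% mitochondrial UMIs, those with at least 4 UMIs of Gad1 and Gad2 together and at least 2 UMIs of Sst were kept. The levels of Gad1, Gad2 and Sst in these nuclei are therefore set by the choice and are given as a description. The animals were male Sprague-Dawley rats. Each of 2 TBI rats had a craniectomy and a lateral fluid percussion injury, in which a pulse of fluid strikes the exposed dura, and 1 sham rat had the surgery without the pulse. The naïve rat had no surgery and served with the sham rat as the control. The dentate gyrus on the injured side was taken 3 weeks after the injury or the sham procedure. The naïve rat had no injury to count from, and its labels give no such time. All 4 nucleus libraries carry 1 batch label, and each rat gave 1 library. The same region from 3 other TBI rats and 3 other sham rats went to bulk RNA-seq. The naïve rat differed from the TBI rats by the surgery as well as by the pulse, and with 1 sham and 1 naïve rat the spread among controls holds both.

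Somatostatin interneurons are GABAergic cells that descend from the medial ganglionic eminence of the embryo. In the dentate gyrus many of them sit in the hilus and send axons to the outer molecular layer, where they inhibit the dendrites of granule cells beside the input from the entorhinal cortex. Hilar somatostatin cells are known as a population that is vulnerable to brain injury and seizures. The Sst gene itself is a textbook target of the cAMP response element (CRE) binding protein CREB. Its RefSeq start region is shown because the selection asks for this transcript besides those of Gad1 and Gad2.
Sst start region, GRCr8 chr11:90461543-90461572, plus strand: ttggcTGACGTCAgagagagagtttaaaaa
The capitals mark the CRE, TGACGTCA, a palindrome that reads alike on both strands. It lies at bases 253 to 260 of a window that runs from 250 bases before to 50 bases after the RefSeq gene start and was the only match in it. Of 33469 such rat windows 612 (1.83%) hold these letters. The sequence comes from RefSeq on the GRCr8 build, whereas the nuclei were counted on Rnor_6.0, and no coordinate of one build is used on the other. Windows were found for 19 of the 25 genes of a Sst interneuron identity list, and 2 of them, Sst and Nos1, hold the motif.

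TBI rat 1, TBI rat 2, the sham rat and the naïve rat gave 40, 25, 18 and 79 Sst interneuron nuclei, and values for the 4 rats follow in this order from here on. The sums over these nuclei held 241640, 71206, 59955 and 380850 UMIs of all genes. The median Sst interneuron nucleus held 4204.5, 2715, 2847 and 4135 UMIs and 2238.5, 1536, 1698.5 and 2161 genes, against medians of 2279, 1640, 1897 and 2653 UMIs over all nuclei past the filters. TBI rat 2 and the sham rat thus rest on the fewest nuclei and on sums several times smaller than those of TBI rat 1 and the naïve rat. Of the cell barcodes past the filters 315 occurred in more than 1 library, and none of these belonged to a Sst interneuron nucleus.

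TBI rat 1 stood apart in ways that touch the results. Nuclei with no Gad UMI and at least 10 UMIs of astrocyte, oligodendrocyte, microglia and vessel markers should lack Sst. In TBI rat 1, 4.97% of these glial nuclei held a Sst UMI (95% exact binomial interval 3.78% to 6.41%, n = 1126, median 1514.5 UMIs), against 0.866%, 1.62% and 1.77% in TBI rat 2, the sham rat and the naïve rat (n = 1848, 1668 and 1471, median 1149, 1471 and 1621 UMIs). With 2 Sst UMIs, the level that the selection asks for, the share of glial nuclei was 0.355, 0, 0.120 and 0%, against 12.4, 6.76, 6.12 and 20% of GABAergic nuclei, which had median depths of 3318, 2418, 2926 and 4087 UMIs. The count of 0 in TBI rat 2 and in the naïve rat allows a share of up to 0.162% and 0.204% of glial nuclei by the limit of 3 counts, where the exact interval reaches 0.199% and 0.250%, and floors and intervals cover counting error only. Among nuclei of 1500 or more UMIs, each thinned to 1500, a Sst UMI was found in 2.80, 0.132, 1.03 and 0.883% of glial and 11.3, 8.58, 7.93 and 18.2% of GABAergic nuclei, with 556, 1157, 861 and 671 glial and 6, 26, 8 and 2 GABAergic nuclei left out as shallower. Of all Sst UMIs past the filters, 15.3, 19.96, 11.2 and 57.9% lay in Sst interneuron nuclei, so that the naïve rat was the only one of the 4 with most of its Sst inside the selection.

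Sst interneuron nuclei of TBI rat 1 also carried the most glial transcripts. Those with 3 or more glial or vessel marker UMIs numbered 15, 0, 1 and 6 in the 4 rats. The summed astrocyte markers stood at 778, 28.1, 267 and 102 CPM (each gene's UMIs scaled to a fixed total of 1000000 summed UMIs), with 8 of 8 genes seen and Slc1a3, a glutamate transporter, as the most abundant. The summed oligodendrocyte markers stood at 348, 0, 117 and 36.8 CPM, led by Mbp, a myelin protein. Oligodendrocyte precursor markers stood at 273, 98.3, 150.1 and 137 CPM, endothelial and pericyte markers at 45.5, 0, 33.4 and 10.5 CPM and granule neuron markers at 2396, 871, 1351 and 1221 CPM, each of these lists highest in TBI rat 1. Mossy cell and pyramidal neuron markers stood at 708, 534, 484 and 391 CPM. Microglia markers stood at 57.9, 42.1, 16.7 and 21.01 CPM, and Cx3cr1, C1qb and P2ry12 were at 0 in all 4 rats. One nucleus of TBI rat 1 held 25324 UMIs, 10.5% of the UMIs and 29.3% of the glial and vessel marker UMIs of its Sst interneuron nuclei, with 4 Gad and 2 Sst UMIs. Doublets were not removed, and their part in these levels was not tested.

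Sst itself, which defined the selection, stood at 488, 1376, 817 and 1121 CPM, with at most 7, 10, 5 and 20 UMIs in 1 nucleus, so that TBI rat 1 was lowest and TBI rat 2 highest. Several genes of the class were higher than in the rest of the GABAergic nuclei, and not all were. Elfn1, a postsynaptic adhesion protein that recruits a presynaptic metabotropic glutamate receptor at inputs onto Sst cells, stood at 286, 407, 434 and 357 CPM, against 47.3, 38.9, 96.1 and 47.3 CPM in the other GABAergic nuclei, those with at least 4 Gad UMIs and 0 or 1 Sst UMI. It was higher in the Sst interneuron nuclei of every rat, and 111 of the 162 nuclei held at least 1 of its UMIs. Satb1, a chromatin organizer needed for Sst cell maturation, stood at 195, 281, 284 and 163 CPM against 76.2, 85.4, 77.8 and 36.7 CPM. Grin3a, an NMDA receptor subunit, stood at 103, 154, 150.1 and 102 CPM against 60.6, 63.7, 91.8 and 65.7 CPM. Lhx6, the transcription factor of the medial ganglionic eminence lineage, had 9, 5, 5 and 26 UMIs and stood at 37.2, 70.2, 83.4 and 68.3 CPM against 33.9, 39.97, 54.01 and 25.1 CPM. Elfn1, Satb1, Grin3a and Lhx6 were each higher in Sst interneuron nuclei than in other GABAergic nuclei in all 4 rats. Of the 20 identity genes with a UMI in these nuclei 7 were higher in all 4 rats and 5 lower, the latter being Nos1, Pnoc, Reln, Calb1 and Kit. Of all 13755 genes with a UMI in Sst interneuron nuclei, 7.04% were higher in all 4 rats and 11.6% lower, and nothing is read from counts of this kind below. A contrast of nuclei chosen by Sst with the rest has no test here, since co-expression with Sst enters the choice.

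Several genes of neighbouring interneuron classes were lower than in other GABAergic nuclei. Adarb2, which marks interneurons of the caudal ganglionic eminence, stood at 78.6, 0, 133 and 13.1 CPM against 596, 1286, 1280.0 and 823 CPM in other GABAergic nuclei, and Cnr1, the cannabinoid receptor that a class of basket cells carries, at 37.2, 0, 117 and 0 CPM against 240.5, 488, 256 and 389 CPM. The naïve rat and TBI rat 2 had no Cnr1 UMI in these nuclei, while TBI rat 1 and the sham rat had 9 and 7. Of 12 caudal eminence markers with a UMI in these nuclei 9 were lower than in other GABAergic nuclei in all 4 rats, and Vip was at 0. Col19a1, a collagen and the most abundant of that list here, still stood at 137, 506, 534 and 320.3 CPM against 365, 606, 553 and 488 CPM. Of 6 parvalbumin interneuron markers with a UMI 3 were lower in all 4, and Pvalb had 1 UMI, in the naïve rat. The list summed to 476, 674, 600.5 and 496 CPM against 719, 914, 793 and 610.0 CPM. Reln, a matrix glycoprotein that part of the Sst class also makes, was lower than in the other GABAergic nuclei of every rat, at 199, 534, 851 and 441 CPM against 1035, 2158, 1779 and 1069 CPM, and 49 of the nuclei held it. Excitatory neuron genes were present in both classes. Granule neuron markers, given above for Sst interneuron nuclei, summed to 2305, 1211, 1654 and 1815 CPM in other GABAergic nuclei, and mossy cell and pyramidal markers to 742, 508, 562 and 483 CPM. Slc17a7, the vesicular glutamate transporter 1, stood at 273, 28.1, 50.04 and 55.1 CPM against 226, 74.5, 92.9 and 150.2 CPM, higher in Sst interneuron nuclei of TBI rat 1 and lower in those of the other 3 rats.

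**Figure D1:**
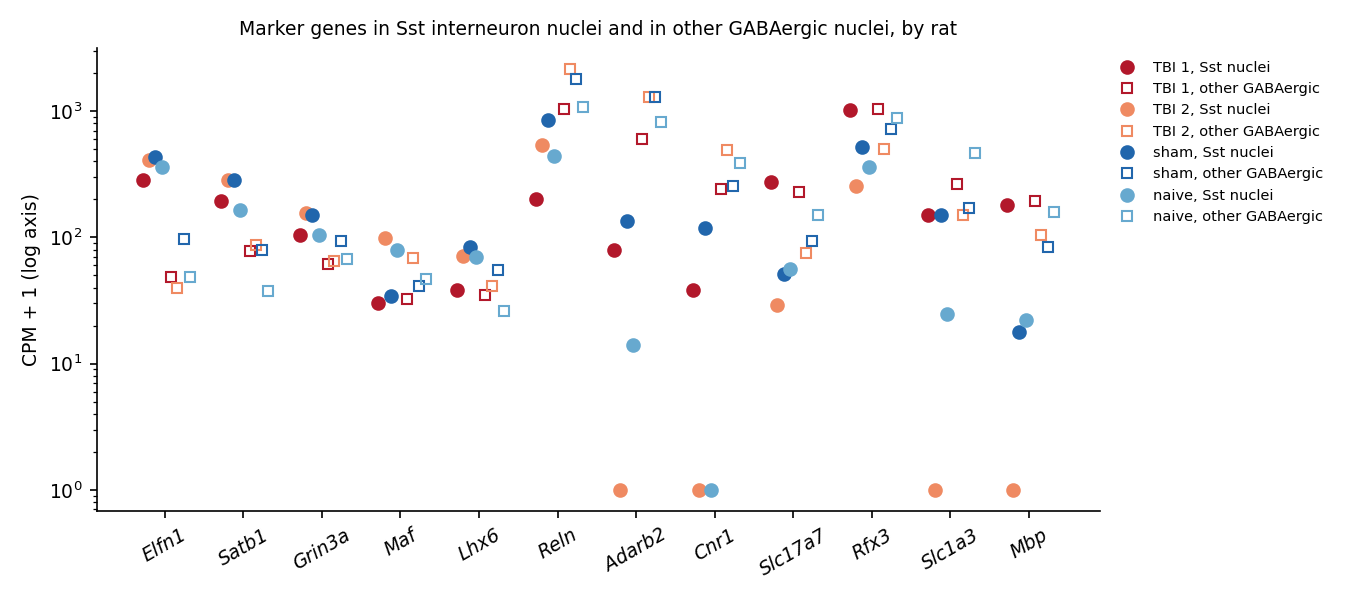
CPM + 1 on a log axis for 12 marker genes, filled circles for Sst interneuron nuclei and open squares for other GABAergic nuclei, 1 point per rat and no error bars. Elfn1, Satb1, Grin3a and Lhx6 lay higher in Sst interneuron nuclei of every rat and Reln, Adarb2 and Cnr1 lower, while Slc17a7 and Mbp of TBI rat 1 stood above the other rats' Sst interneuron nuclei.

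Other transcripts known from this class were missing or sparse. Npy, a peptide that many hilar Sst cells make, had 0 UMIs in the 162 nuclei, which allows a share of up to 1.85% of nuclei with a UMI, and 2 UMIs over all nuclei of the 4 libraries, so no Npy share could be compared. In bulk Npy lay between 0 and 1.59 CPM in the 6 libraries. With so little Npy counted in either assay, the 0 in these nuclei does not tell whether the cells made it. Chodl, Chrna2 and Oxtr were also at 0 in the nuclei, and 20 of the 24 measured identity genes had at least 1 UMI. Among genes of known Sst subtypes, Crhbp, the corticotropin-releasing hormone binding protein, had 1, 5, 1 and 11 UMIs, and Nos1, the neuronal nitric oxide synthase, had 8, 2, 3 and 24. Tacr1, the substance P receptor that marks long-range projecting Sst cells together with Nos1, had 24, 7, 4 and 53. All 3 thus had at least 1 UMI in every rat, at low counts, and a background share was not measured for them. The calcium-binding proteins Calb1 and Calb2 had 5, 0, 0 and 5 and 6, 3, 0 and 5 UMIs. Maf, a factor of Sst cell fate, had 7, 7, 2 and 30 UMIs. Nxph1, a secreted neurexin ligand, had 4, 5, 1 and 34 UMIs, fewest in the sham rat. Kit, a receptor tyrosine kinase, had 15, 1, 3 and 2 UMIs, most of them in TBI rat 1. Sox6, a lineage factor that glial precursors and astrocytes also express, had 36, 7, 5 and 20 UMIs. The peptide genes Pnoc and Tac1 had 0, 1, 1 and 1 and 1, 3, 0 and 1 UMIs and Chrm2, a muscarinic receptor, 0, 1, 0 and 2, so that each was at 0 in at least 1 rat.

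Levels were also followed along the number of Sst UMIs in a GABAergic nucleus, summed over the 4 rats. With 0, 1, 2, 3 to 4 and 5 or more Sst UMIs there were 1138, 81, 57, 55 and 50 nuclei, and Elfn1 stood at 43.3, 194, 334, 369 and 332 CPM. Adarb2 stood at 988, 84.2, 78.9, 19.6 and 22.7 CPM over the same steps and Cnr1 at 369, 22.96, 43.04, 11.8 and 4.55 CPM. The 81 nuclei just outside, with 1 Sst UMI, thus had Elfn1 at a level between those at 0 and 2 Sst UMIs. By rat, Adarb2 stood at 174, 0, 25.1 and 18.2 CPM with 1 Sst UMI and at 96.6, 0, 219 and 0 CPM with 2. Summed glial and vessel markers stood at 1987.5, 1199, 1022, 278 and 168 CPM over the steps, and in no single rat did they fall at each. The 5-or-more class held 5, 8, 1 and 36 nuclei in the 4 rats, so that most of it came from the naïve rat.

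**Figure D2:**
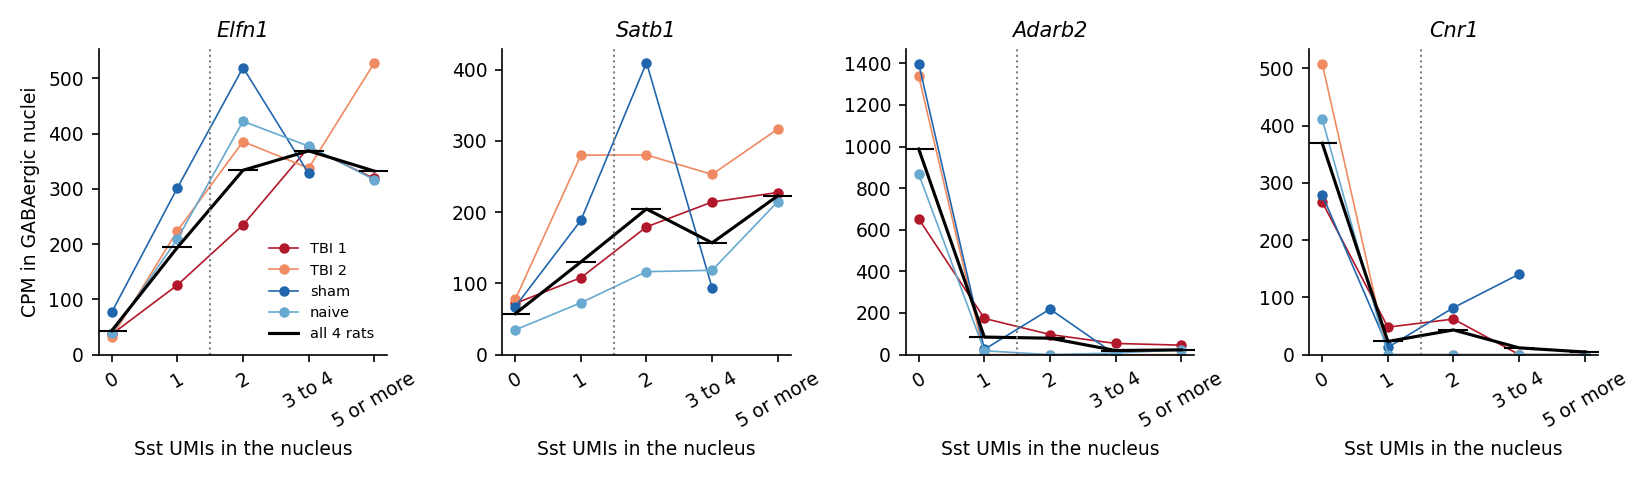
CPM of Elfn1, Satb1, Adarb2 and Cnr1 (linear axes) in GABAergic nuclei by the number of Sst UMIs they held, with coloured lines for the rats (classes under 5 nuclei not drawn) and black for all 4 rats summed; the dotted line marks the threshold. Over all rats Elfn1 went from 43.3 CPM at 0 Sst UMIs to 334 CPM at 2, and Adarb2 from 988 to 78.9 CPM.

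The Gad threshold left out more nuclei with 2 or more Sst UMIs than it kept. Another 56 nuclei had 2 or more Sst UMIs with 3 Gad UMIs, 136 had 1 or 2 Gad UMIs and 47 had none, 239 in all against the 162 selected. Elfn1 stood at 359 CPM in the 63 nuclei just inside, with 4 Gad UMIs, and at 327 CPM in the 56 just outside. In nuclei with 1 or 2 and with 0 Gad UMIs Elfn1 stood at 399 and 428 CPM, and Satb1 at 223 and 222 CPM. Those with 0 Gad UMIs were shallower, with a median of 2379 UMIs against 3274 at 4 Gad UMIs. Summed glial and vessel markers stood at 661 CPM at 4 Gad UMIs and at 1130, 778 and 1200.3 CPM at 3, 1 or 2 and 0. Reln stood at 435 CPM at 4 Gad UMIs and at 249, 412 and 168 CPM over the same steps. Elfn1 and Satb1 thus stood at like levels on both sides of the Gad threshold.

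Whether TBI changed how many of the nuclei were Sst interneurons was asked of the shares. Sst interneuron nuclei made up 12.4, 6.76, 6.12 and 20% of the 322, 370, 294 and 395 GABAergic nuclei (95% exact intervals 9.02% to 16.5%, 4.42% to 9.81%, 3.67% to 9.50% and 16.2% to 24.3%). By this rule the TBI rats lay between the sham rat, the lowest, and the naïve rat, the highest, an order that the rule itself moved. With at least 1 Sst UMI the shares were 19.9, 10.3, 12.9 and 26.1%, and with at least 2 Elfn1 UMIs in place of Sst 12.1, 4.59, 9.86 and 15.7%, with TBI rat 2 below the sham rat in both. The mean was 9.59% in TBI and 13.1% in control rats, a difference of -3.47 percentage points (exact permutation test, two-sided, p = 1, where the smallest p that 2 rats against 2 allow is 0.33). The intervals of the sham and naïve rats did not overlap, so that the 2 controls differed by more than their counting error and by more than the TBI and control means. Without the naïve rat the difference was 3.47 points in the other direction. Without Sst interneuron nuclei of 3 or more glial or vessel marker UMIs the shares were 7.76, 6.76, 5.78 and 18.5%. With at least 5 Sst UMIs they were 1.55, 2.16, 0.340 and 9.11%, with TBI rat 1 below TBI rat 2. With nuclei thinned to 1000 UMIs and thresholds of 2 Gad and 1 Sst UMIs they were 6.01, 6.05, 4.59 and 12.3%.

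Among all nuclei past the filters the share was 0.319, 0.172, 0.106 and 0.695%, by this rule lowest in the sham and highest in the naïve rat, and with at least 2 Elfn1 UMIs in place of Sst 0.311, 0.117, 0.171 and 0.546%, lowest in TBI rat 2. The TBI rats averaged 0.245% and the controls 0.401%, a difference of -0.155 points (exact permutation test, two-sided, p = 1). With no Gad threshold, an alternative added after the data were seen, nuclei with 2 or more Sst UMIs made up 0.902, 0.631, 0.419 and 1.10%, and the difference was 0.0071 points. In nuclei a lower share and less Sst RNA per nucleus cannot be told apart under a threshold on UMIs, and depth differed between the rats as given above.

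**Figure D3:**
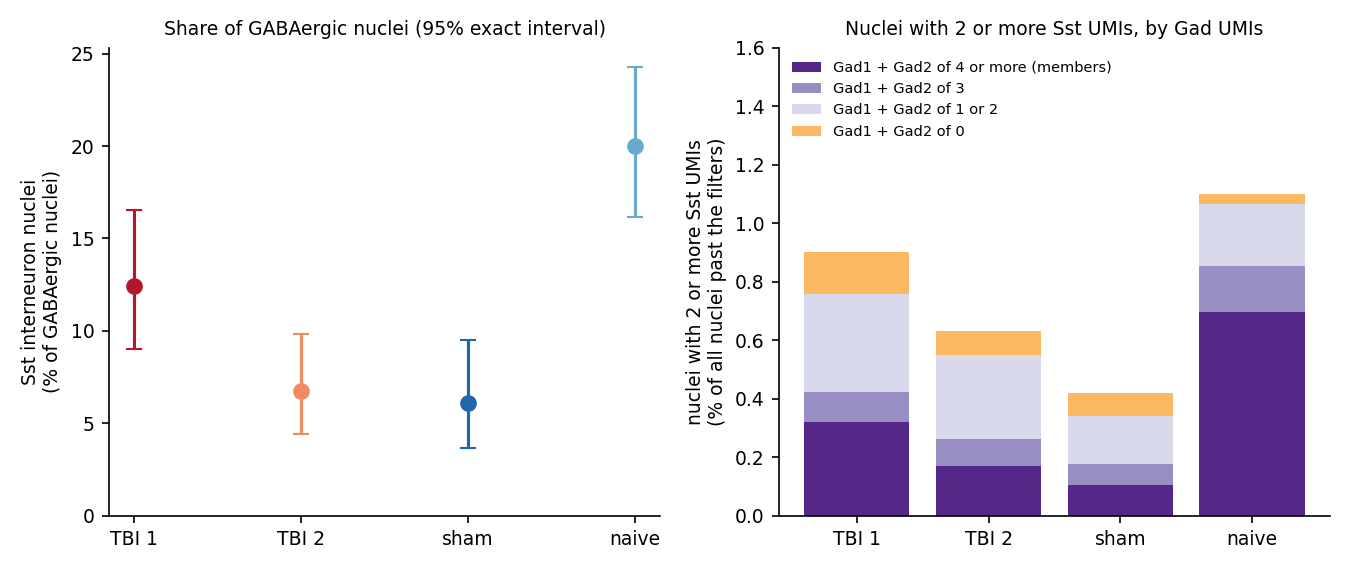
Left, Sst interneuron nuclei as a percentage of GABAergic nuclei in each rat with 95% exact binomial intervals; right, stacked bars of all nuclei with 2 or more Sst UMIs as a percentage of nuclei past the filters, split by Gad1 and Gad2 UMIs. By this rule the sham rat was lowest, 6.12%, and the naïve rat highest, 20% on the left, and with at least 1 Sst UMI, which is not plotted, TBI rat 2 was lowest.

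The profile of the Sst interneuron nuclei was next described against the other GABAergic nuclei of the same rats. Of 2630 genes with at least 50 CPM in the Sst interneuron nuclei of every rat, the 15 with the highest ratio of mean CPM were, after Sst itself, Prkcq, Neb, Lypd6b, Man1a1, Elfn1, Ptpru, Ets1, Nrg1, Grik3, Tmem91, Cdh7, Stk32a, Il1rapl2 and Kcnmb2. Their ratios ran from 7.79 to 3.72, and for Sst the ratio was 59.3. Prkcq, protein kinase C theta, stood at 145, 211, 133 and 289 CPM against 20.5, 30.3, 25.9 and 23.2 CPM. Lypd6b, a relative of the proteins that tune nicotinic receptors, stood at 331, 379, 417 and 431 CPM against 41.6, 60.5, 81.01 and 38.2 CPM. Man1a1, a Golgi mannosidase, stood at 219, 435, 500.4 and 465 CPM against 68.4, 51.9, 66.97 and 46.8 CPM, and Ets1, a transcription factor, at 116, 323, 417 and 328 CPM against 52.9, 54.02, 55.1 and 43.5 CPM. Nrg1, the neuregulin ligand, stood at 70.4, 253, 167 and 171 CPM against 29.6, 23.8, 50.8 and 26.6 CPM, and Neb, better known from muscle, at 364, 239, 434 and 247 CPM against 51.5, 34.6, 57.2 and 28.98 CPM. In these 6 genes the lowest of the 4 rats lay above the highest value in other GABAergic nuclei. The genes were taken for a level in every rat's Sst interneuron nuclei and for their ratio, so the separation is largely fixed by the choice and has no test.

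Transmitter receptor genes lay on both sides of their level in other GABAergic nuclei. Glutamate receptor genes summed to 24036, 28551, 28872 and 26546 CPM against 19199, 19962, 21929 and 17261 CPM in other GABAergic nuclei, and 9 of 23 were higher and 5 lower in all 4 rats. Gria1, an AMPA receptor subunit, stood at 4457, 5786, 5721 and 5283 CPM against 2235, 2604, 2697 and 1665 CPM and Gria4 at 3236, 5716, 5654 and 4805 CPM against 1940.1, 2867, 3042 and 1969 CPM. Grik2, a kainate receptor subunit, was close in both classes, at 2363, 3089.6, 2869 and 3025 CPM against 2526, 3182, 3238 and 2613 CPM, whereas Grik3 stood at 393.1, 463, 667 and 381 CPM against 126, 75.6, 134 and 70.03 CPM. GABA receptor genes summed to 3890.1, 2977, 3269 and 2492 CPM against 6419.7, 7732, 7905 and 6069.5 CPM, with 8 of 14 lower in all 4 rats. Gabrg3, a GABA-A receptor subunit, stood at 286, 800.5, 667 and 305 CPM against 1862, 3355, 3379.8 and 1638 CPM, Gabrb2 at 223, 267, 167 and 202 CPM against 509.9, 799, 734 and 549 CPM, Gabrb1 at 1304, 211, 600.5 and 420.1 CPM against 1513, 883, 1245 and 1581 CPM and Gabbr2, a GABA-B subunit, at 666, 506, 417 and 404 CPM against 872, 1112, 859 and 590.2 CPM. Gabrb1 in TBI rat 1 stood well above the other 3 rats' Sst interneuron nuclei. Among acetylcholine and monoamine receptors 5 of 15 with a UMI were lower in all 4 rats, among them Chrna7 at 124, 211, 150.1 and 131 CPM against 207, 258, 335 and 165 CPM.

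Of 19 potassium and HCN channel genes 2 were higher and 10 lower than in other GABAergic nuclei in all 4 rats. Kcnc2, a fast delayed-rectifier potassium channel, stood at 1357, 3497, 2452 and 3290.0 CPM against 927, 1489, 1463 and 1059 CPM, lowest in TBI rat 1. Kcnma1, the pore of the BK channel, stood at 1378, 1376, 1334 and 937 CPM against 1429, 1170.1, 1345 and 933 CPM, higher in 2 rats and lower in 2. Cacna2d3, an auxiliary calcium channel subunit, stood at 1755, 2247, 2168 and 1573 CPM against 892, 659, 848 and 762 CPM. Of 21 synaptic adhesion genes 7 were higher and 7 lower in all 4 rats. Nrxn3, a presynaptic adhesion protein, stood at 9551, 16080.1, 14978 and 13606 CPM against 6501, 7999, 9282 and 7087 CPM, while Lrrtm4 was at 5533, 7569.6, 7489 and 7633 CPM against 6113, 9238, 8959 and 6859 CPM. Il1rapl2, a synaptic relative of the interleukin-1 receptors, stood at 919, 1531, 1785 and 1074 CPM against 365, 390.0, 472 and 166 CPM. Matrix genes differed little in sum, at a level of 1519, 1390.3, 1251 and 1310.2 CPM against 1362.5, 1339, 1377 and 1487 CPM, and Tnr, tenascin R, stood at 766, 857, 634 and 748 CPM against 427, 393.3, 462 and 365.6 CPM.

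Of 14 genes of peptide processing and dense core vesicles with a UMI, 3 were higher and 2 lower than in other GABAergic nuclei in all 4 rats. Ptprn2, a dense core vesicle protein, stood at 1804.34, 2780.66, 2401.80 and 2181.96 CPM against 917, 1154, 1293 and 778 CPM, Cadps, which primes these vesicles, at 1357, 2401, 2135 and 1801 CPM against 1582, 2509, 2351 and 1456 CPM, and Pam, which amidates peptides, at 646, 829, 1251 and 1074 CPM against 678, 837, 957 and 634 CPM. Cadps was lower in 3 rats and Pam in 2. Cpe, a carboxypeptidase of peptide maturation, stood at 364, 239, 567 and 373 CPM against 542, 361, 397 and 738 CPM, lower in 3 rats, and Chgb, a granin, at 124, 56.2, 66.7 and 118 CPM against 151, 89.7, 113 and 192 CPM, lower in all 4. Vgf, a granin-like precursor of secreted peptides, stood at 49.7, 28.1, 167 and 142 CPM against 19.7, 34.6, 11.9 and 20.3 CPM, the TBI rats lower than the controls. Other peptide genes were sparse, with Tac1, Penk, Pdyn and Pnoc in 2 to 5 nuclei each and 7 of 15 measured peptide genes at 0. Somatostatin and neuropeptide Y receptors were near 0, at 4.14, 0, 16.7 and 21.01 CPM summed over 8 genes.

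The effect of TBI on gene expression in Sst interneuron nuclei was tested on the sums per rat, 2 TBI against 2 control rats. Of 3671 genes that passed the filter on low counts 0 were called by edgeR's quasi-likelihood test at an adjusted p under 0.05 (0.0% of genes tested), with 128 at an unadjusted p under 0.05 (3.49%), and 0 by DESeq2 with 8 unadjusted. Genes where both TBI rats lay above both controls made up 16.5% of those tested and genes where both lay below 12.5%. The genes below were named for this separation and for their small p, so the order of the rats in them is no support for a change. With TBI rat 2 left out, so that TBI rat 1 was the lone TBI rat and was assumed to vary like the controls, 43 genes were called. Among these were Gfap and Mbp of the glial lists, and also Apoe, Slc17a7, Slc8a2, Agap2, Rtn4rl1, Lancl3, Reln, Kcnc2, Ets1 and Kcnj3. With TBI rat 1 left out 2 were called.

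Among the leading genes that were higher in both TBI rats, Slc8a2, a sodium-calcium exchanger, stood at 339, 98.3, 50.04 and 65.6 CPM (Log2FC 1.93 ± 0.50 (SE), unadjusted p = 0.000770, edgeR adjusted p = 0.998). B3gat1, which makes the HNK-1 glycan of neural adhesion proteins, stood at 157, 154, 50.04 and 39.4 CPM (Log2FC 1.85 ± 0.49 (SE), unadjusted p = 0.000907), with the TBI rats close to each other and the controls close to each other. Agap2, a GTPase-activating protein of phosphoinositide signalling, stood at 174, 70.2, 33.4 and 31.5 CPM and Rtn4rl1, a relative of the Nogo receptor, at 248, 126, 50.04 and 68.3 CPM. Smad3, a transducer of TGF-beta signals, stood at 153, 112, 33.4 and 47.3 CPM (Log2FC 1.58 ± 0.51 (SE)), and Ski, a corepressor of Smad proteins, at 190.4, 154, 50.04 and 73.5 CPM (Log2FC 1.33 ± 0.46 (SE)). Baz1b, a chromatin remodelling factor, and Tsc22d1, a transcription factor, stood at 269, 183, 83.4 and 86.6 CPM and at 265, 365, 117 and 126 CPM. The sham rat's values rest on few UMIs, 3 of Slc8a2, 3 of B3gat1, 2 of Agap2 and 2 of Smad3. In bulk tissue the log2 changes of Slc8a2 and B3gat1 were -0.30 and -0.21, neither past an unadjusted p of 0.05.

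Among those lower in both TBI rats, Vgf had 12, 2, 10 and 54 UMIs and stood at 49.7, 28.1, 167 and 142 CPM (Log2FC -1.79 ± 0.50 (SE), unadjusted p = 0.00150, edgeR adjusted p = 0.998). Lancl3, a member of the lanthionine synthetase-like family, stood at 57.9, 112, 234 and 226 CPM (Log2FC -1.63 ± 0.46 (SE)). Npas1, a transcription factor of interneurons, stood at 45.5, 70.2, 100.1 and 149.7 CPM (Log2FC -1.39 ± 0.50 (SE)), and Kpna5, an importin, at 41.4, 14.04, 150.1 and 99.8 CPM. Srsf7, a splicing factor, and Serbp1, an mRNA binding protein, stood at 103, 84.3, 150.1 and 252 CPM and at 41.4, 28.1, 66.7 and 126 CPM. Timp2, an inhibitor of matrix metalloproteinases, stood at 66.2, 84.3, 200.2 and 147 CPM (Log2FC -1.21 ± 0.47 (SE)), or -0.56 (unadjusted p = 0.267) without nuclei of 3 or more glial or vessel marker UMIs. In bulk its values were 226 ± 26.2 CPM (SD, n = 3) in TBI and 139 ± 21.2 CPM (SD, n = 3) in sham rats (edgeR Log2FC 0.67 ± 0.15 (SE), unadjusted p = 0.00228, adjusted p = 0.203). Lurap1l stood at 62.1, 84.3, 183 and 144 CPM. In the nuclei with 2 or more Sst UMIs and no Gad threshold, which include all of these, the log2 changes were -0.77 for Vgf and 0.87 for B3gat1, and for 15 of the 16 leading genes smaller in size than with the threshold.

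**Figure D4:**
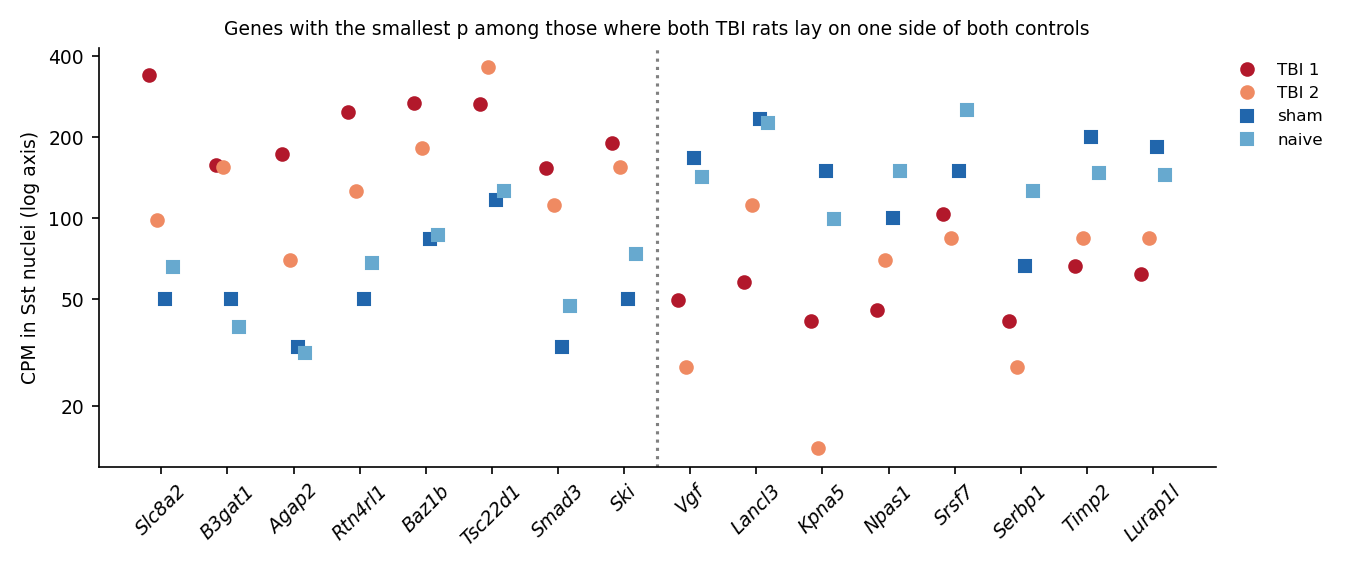
CPM on a log axis in the Sst interneuron nuclei of each rat for 8 genes higher (left of the dotted line) and 8 genes lower in both TBI rats than in both controls, circles for TBI and squares for control rats, without error bars since each point is 1 rat. The genes were picked for this separation; Vgf lay at 49.7 and 28.1 CPM in TBI against 167 and 142 CPM in control rats, and no gene passed an adjusted p of 0.05.

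By function, no list held a gene past the adjusted threshold, and few genes passed an unadjusted p of 0.05, which 2.18% of all tested genes did upward and 1.31% downward. Over all tested genes the median log2 change was 0.02, or -0.04 without TBI rat 1. Of 10 tested identity genes Sox6 (Log2FC 1.09) and Reln (Log2FC -0.89) passed it. Sox6 stood at 149, 98.3, 83.4 and 52.5 CPM, highest in TBI rat 1. The list's median was -0.27, or -0.03 without TBI rat 1, over the genes still tested. For Reln, TBI rat 2 lay above the naïve rat, and the log2 change was -0.25 without TBI rat 1 and -1.64 without TBI rat 2 (edgeR adjusted p = 0.00544). Elfn1 had Log2FC -0.24 ± 0.36 (SE), Satb1 Log2FC 0.14 ± 0.40 (SE) and Grin3a Log2FC 0.02 ± 0.46 (SE). Sst itself, a gene of the selection, had Log2FC -0.19 ± 0.38 (SE). Without TBI rat 1 the log2 changes of these 4 genes were -0.03, 0.39, 0.29 and, turned in sign, 0.33. Of 13 genes of peptide processing Vgf, Scg2 (Log2FC -1.22) and Pam (Log2FC -0.69) were lower at an unadjusted p under 0.05, with a median of -0.34 over the list and -0.53 without TBI rat 1. Pam, which makes the amide ends of peptides, stood at 646, 829, 1251 and 1074 CPM, and Scg2, a granin, at 78.6, 126, 50.04 and 297 CPM, where the sham rat was lowest. Of 5 stress genes Hspa5 and Calr, chaperones of the endoplasmic reticulum, were lower (Log2FC -1.28 and -1.14), at 108, 28.1, 83.4 and 249 and 108, 14.04, 83.4 and 207 CPM, with the naïve rat highest of the 4. In both genes TBI rat 1 lay above the sham rat. Without TBI rat 1 their log2 changes were -2.94 and -3.68, from the few UMIs of TBI rat 2.

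Few receptor and channel genes passed the unadjusted threshold. Of 19 tested glutamate receptors only Grm8 passed an unadjusted p of 0.05, at 521, 154, 450.3 and 1006 CPM (Log2FC -1.09 ± 0.42 (SE)), and the median was -0.04. In Grm8 TBI rat 1 lay above the sham rat, and without TBI rat 1 the log2 change of Grm8 was -2.49. Of 11 GABA receptor genes none passed an unadjusted p of 0.05, with a median of 0.15. Of 14 potassium and HCN channels Kcnj3, a G protein-gated channel, did, at 439, 225, 234 and 78.8 CPM (Log2FC 1.49 ± 0.46 (SE)), where TBI rat 2 lay just below the sham rat. Without TBI rat 1 its log2 change was 0.80. None of 14 sodium and calcium channels and none of 18 adhesion genes did, with medians of 0.24 and -0.15. Without TBI rat 1 these medians were 0.15 and 0.06, the latter turned in sign, and those of glutamate and GABA receptors -0.08 and 0.18. Lineage factors added Nr2f1, a nuclear receptor, at 124, 112, 33.4 and 60.4 CPM (Log2FC 1.09 ± 0.52 (SE)). Immediate early genes were too sparse, with 1 of 12 tested and Fos, Fosb, Arc and Egr3 at 0 in all 4 rats, and of the interferon list, the microglia list and the oligodendrocyte list no gene had enough UMIs to be tested.

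Whether TBI acted differently in Sst interneuron nuclei than in the other GABAergic nuclei of the same rats was tested as an interaction. Of 9067 genes 30 were called by edgeR at an adjusted p under 0.05 (0.331% of genes tested), all with a more positive TBI effect in Sst interneuron nuclei. Of the 30, 6 were in the astrocyte marker list and 1 in the oligodendrocyte list, and the first 4 by p were Apoe, Gfap, Cst3 and Fth1. Beyond those lists the 30 also held Plpp3, Cyp7b1, Mt3, Mlc1, Scd2, Marcks, S100b, Sparcl1, Tril, Htra1, Sorbs3, Nrgn, Agt, Col11a2, Ptn and Lix1. Sox6, Kcnj3 and the glutamate receptor genes Grm3 and Grin2c were called, too. Grin2c had 10, 0, 0 and 0 UMIs in Sst interneuron nuclei and Grm3 72, 2, 3 and 20. The lists hold selected markers only, so the counts in them do not tell how many of the 30 are glial genes. Apoe, a lipid carrier made by astrocytes, stood at 521, 0, 33.4 and 0 CPM in Sst interneuron nuclei and at 733, 188, 114 and 2461 CPM in other GABAergic nuclei. Gfap, the astrocyte filament, stood at 108, 0, 0 and 0 CPM against 151, 41.1, 20.5 and 554 CPM, and Cst3, a secreted protease inhibitor, at 178, 0, 33.4 and 0 CPM against 226, 14.05, 54.01 and 372 CPM. All 30 genes were highest in TBI rat 1 among the Sst interneuron nuclei, 22 of them were at 0 UMIs in TBI rat 2, and 26 were highest in the naïve rat among the other GABAergic nuclei. The like shares over all 9067 genes are not given, and the call itself favours such orders, so these counts only describe the called genes. Without TBI rat 1 the call was 1 gene, Adgrv1. Without the naïve rat 0 genes were called, with 238 at an unadjusted p under 0.05. With nuclei of 3 or more glial or vessel marker UMIs left out of both classes 0 of 7672 genes were called, with 220 at an unadjusted p under 0.05. Among genes with a lower TBI effect in Sst interneuron nuclei, Vgf led (interaction log2 -2.15 ± 0.64 SE, edgeR adjusted p = 0.168), followed by Cd53, Crtc2 and Ust (interaction log2 -3.09, -3.56 and -1.23), none of them past the adjusted threshold. Without the naïve rat Ust was at -0.43 (unadjusted p = 0.486), and without TBI rat 1 Vgf was at -3.41 and Crtc2, then with no UMI in the remaining TBI rat, at -8.87, a fitted value that is no bound. In other GABAergic nuclei Vgf stood at 19.7, 34.6, 11.9 and 20.3 CPM.

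Bulk RNA-seq gave the same genes in the whole dentate gyrus of other rats, where fewer cells of a type and less RNA per cell cannot be told apart. Sst stood at 74.5 ± 4.23 CPM (SD, n = 3) in TBI and 73.5 ± 21.8 CPM (SD, n = 3) in sham rats (edgeR Log2FC -0.02 ± 0.21 (SE), unadjusted p = 0.937, adjusted p = 0.993), with 78.9, 70.5 and 74.2 CPM in the TBI and 91.3, 49.1 and 80.2 CPM in the sham rats, whose range took in the TBI values. Elfn1 stood at 23.5 ± 4.82 CPM (SD, n = 3) in TBI and 26.5 ± 1.97 CPM (SD, n = 3) in sham rats (edgeR Log2FC -0.21 ± 0.16 (SE), unadjusted p = 0.229, adjusted p = 0.751). Of 14166 genes edgeR called 0 at an adjusted p under 0.05 (0.0%), with 1360 at an unadjusted p under 0.05 (9.6%, 8.2% higher and 1.4% lower in TBI rats), while limma called 0 and DESeq2 349. With the replicate number as a block, added after the data were seen, edgeR called 61. Of 22 identity genes 4 passed the unadjusted threshold, 2 in each direction, Crhbp and Maf among them. Crhbp stood at 9.93 ± 0.258 CPM (SD, n = 3) in TBI and 12.3 ± 1.13 CPM (SD, n = 3) in sham rats (edgeR Log2FC -0.35 ± 0.13 (SE), unadjusted p = 0.0318, adjusted p = 0.440). Maf stood at 16.03 ± 2.95 CPM (SD, n = 3) in TBI and 9.70 ± 1.30 CPM (SD, n = 3) in sham rats (edgeR Log2FC 0.69 ± 0.18 (SE), unadjusted p = 0.00614, adjusted p = 0.256). Maf is also known from microglia and macrophages. In the same libraries 9 of 10 microglia markers were higher at an unadjusted p under 0.05, with a median log2 change of 1.05. Which cells gave the Maf reads was not tested. In neither Crhbp nor Maf did the groups overlap, which held for 14.7% of all genes. The median log2 change of the identity list was -0.08 beside -0.00 over all genes.

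**Figure D5:**
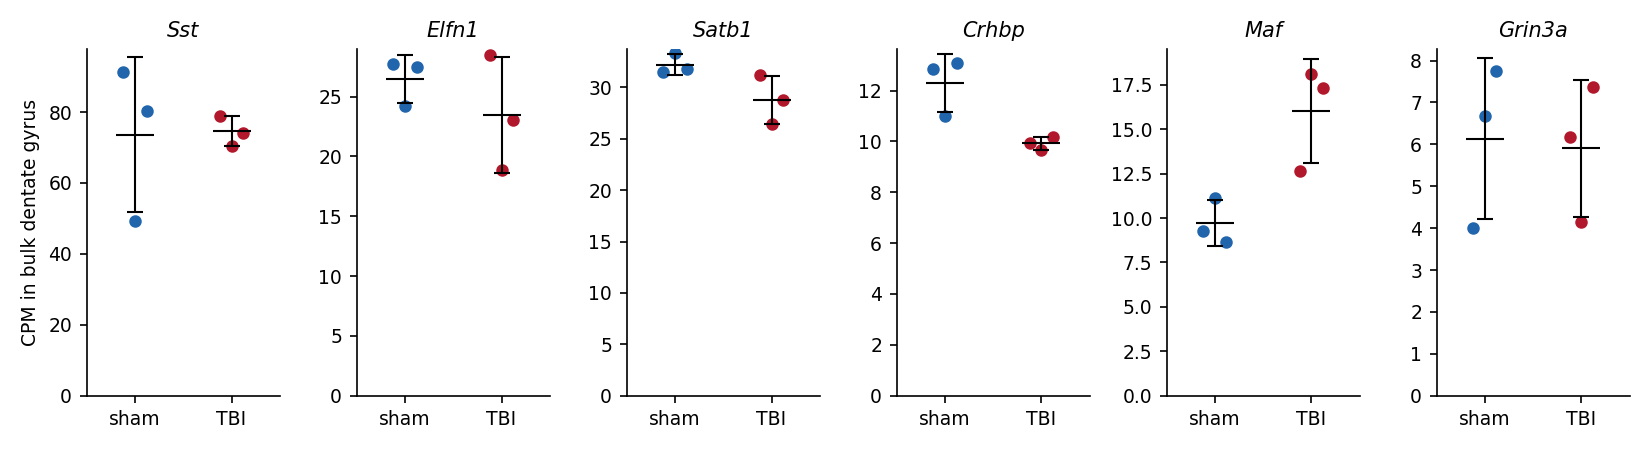
CPM of 6 genes of the Sst interneuron identity list in bulk dentate gyrus, 1 point per rat, with the mean and SD of 3 sham (blue) and 3 TBI (red) rats. Sst overlapped between groups, at 73.5 CPM in sham and 74.5 CPM in TBI rats on average, while Crhbp lay lower and Maf higher in all 3 TBI rats than in any sham rat.

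Gad1, Gad2 and Slc32a1 had lower means in bulk TBI libraries without passing the unadjusted threshold. Gad1, the main GABA-producing enzyme, stood at 193 ± 14.4 CPM (SD, n = 3) in TBI and 222 ± 25.5 CPM (SD, n = 3) in sham rats (edgeR Log2FC -0.24 ± 0.12 (SE), unadjusted p = 0.0913, adjusted p = 0.627), Gad2 at 163 ± 23.6 CPM (SD, n = 3) in TBI and 189 ± 32.3 CPM (SD, n = 3) in sham rats (edgeR Log2FC -0.25 ± 0.17 (SE), unadjusted p = 0.179, adjusted p = 0.709) and Slc32a1, the vesicular GABA transporter, at 66.9 ± 4.27 CPM (SD, n = 3) in TBI and 82.2 ± 15.8 CPM (SD, n = 3) in sham rats (edgeR Log2FC -0.34 ± 0.16 (SE), unadjusted p = 0.0700, adjusted p = 0.582). The median over the 8 genes of this list was -0.22, and 0 of 8 passed an unadjusted p of 0.05. Of 7 parvalbumin interneuron markers Kcnc1 and Syt2 were lower at that threshold, and of 19 potassium and HCN channels Kcnc1, Kcnc2 and Kcna2 were lower, too. Kcnc2, found in 161 of the 162 Sst interneuron nuclei, had Log2FC -0.46 ± 0.18 (SE), unadjusted p = 0.0354, adjusted p = 0.460 by edgeR in bulk and Log2FC -0.32 ± 0.35 (SE) in the nuclei. In the nuclei TBI rat 1 was the lowest and TBI rat 2 the highest of the 4, and the log2 change was 0.14 without TBI rat 1 and -1.18 without TBI rat 2 (edgeR adjusted p = 0.00253). None of 14 tested peptide genes and none of 14 peptide processing genes passed it, and Vgf had Log2FC -0.09 ± 0.10 (SE), unadjusted p = 0.355, adjusted p = 0.827 by edgeR in bulk.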

How the data were processed

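Single-nucleus UMI counts of 4 rats and bulk RNA-seq of 6 other rats were used. The deposited UMI counts came from Cell Ranger with exons and introns on Rnor_6.0 and carry no normalization. Of the deposited entries 1.63, 27.4, 11.1 and 15.5% (TBI rat 1, TBI rat 2, sham, naïve) were stored with the value 0, and no source used here gives the reason. The authors made the bulk values with kallisto and deposited log2 CPM for 14166 genes after leaving out low and low-variance features. The deposited estimated counts per transcript were not used for the tests. Library totals and gene counts were both worked back from the log2 values, with an offset of 0.5. The totals lay between 24730300 and 43912300 counts per library, and the gene counts were rounded. Symbols were matched for 13778 of the 14166 gene IDs. The deposited table of surgery dates was not used, and 0 columns lacked a sample.

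UMIs were summed per rat over the Sst interneuron nuclei and over the other GABAergic nuclei. CPM is scaled to 1000000 summed UMIs and not to length, since the counts are of 3' ends, and levels are compared between rats and classes. The most abundant gene of a list is the one with the highest mean CPM over the 4 rats, which is not a comparison per length. Sums were tested with edgeR 4.0.16 (quasi-likelihood, TMM, filterByExpr for nuclei, Benjamini-Hochberg adjustment over all genes tested), the interaction with rat as a factor, and shares with an exact permutation test. Log2FC is TBI against control. The scripts were tested on simulated data. DESeq2 1.42.0 and limma 3.58.1 were alternatives. Bulk replicates are separate samples by their labels, and p-values measure the spread between these libraries. The members, the 25 gene lists and the tests were chosen with earlier results of these data known. Named genes were the selection genes and identity list, the 8 higher and 8 lower genes of smallest p whose TBI rats lay on one side of both controls, the 4 leading interaction genes each way, the 15 genes with the highest ratio to other GABAergic nuclei, and list genes by level or p. Doublets were not removed. In Npy no comparison was made because its UMIs were at 0. Some list genes are not reported here.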

Additional observations from a re-analysis of the deposited data

Results flagged for a closer look

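The count of 30 genes whose TBI effect differed between Sst interneuron nuclei and other GABAergic nuclei (edgeR interaction test, Benjamini-Hochberg adjusted p under 0.05) drew attention because the difference between the classes was itself tested. The difference was 7.80 on the log2 scale for Apoe, 10.9 for Gfap, 5.67 for Cst3 and 9.48 for Fth1. These fitted values depend on the prior count, since TBI rat 2 and the naïve rat held no UMI of the 4 genes in Sst interneuron nuclei, and they are no bound on a fold. The UMIs of Apoe in Sst interneuron nuclei were 126, 0, 2 and 0 in TBI rat 1, TBI rat 2, the sham rat and the naïve rat, and those of Gfap 26, 0, 0 and 0. Nuclei with 3 or more glial or vessel marker UMIs made up 37.5, 0, 5.56 and 7.59% of Sst interneuron nuclei and 43.3, 11.9, 26.8 and 21.5% of other GABAergic nuclei in the 4 rats. Without such nuclei 0 genes were called, and the cause of the glial UMIs was not tested.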

How the results depend on the processing

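The difference in the share of Sst interneuron nuclei ran from -10.4 to 3.47 percentage points of GABAergic nuclei and from -0.450 to 0.139 points of all nuclei with 1 rat left out, and turned positive in both without the naïve rat. Among all nuclei it was also positive with nuclei thinned to 1000 UMIs and the thresholds lowered at the same time to 2 Gad and 1 Sst UMIs (0.00969 points) and with no Gad threshold (0.00715 points). In Sst interneuron nuclei edgeR called 0 genes, 4 with no filter on low counts (Apoe, Fth1, Cst3 and Gfap) and 0 to 43 with 1 rat left out, 43 of them without TBI rat 2, 4 without the sham rat and 2 without TBI rat 1. The interaction called 0 to 38 genes with 1 rat left out, 1 without TBI rat 1 and 0 without the naïve rat, 15 with no filter, and 0 with glia-marked nuclei left out. With 1 rat left out its log2 difference ran from -1.37 to 13.1 for Apoe and from -0.30 to 10.9 for Cst3, both lowest without TBI rat 1, from -0.35 (without the naïve rat) to 9.88 for Fth1 and from 3.54 (without TBI rat 1) to 11.2 for Gfap. For the genes with a lower effect it ran from -3.41 (without TBI rat 1) to -1.65 for Vgf, from -3.58 to -2.95 for Cd53, from -8.87 (without TBI rat 1) to -3.11 for Crtc2 and from -1.81 (without TBI rat 1) to -0.43 (without the naïve rat) for Ust. It turned to -0.36 for Apoe and -0.48 for Fth1 without glia-marked nuclei, where Cst3 was at 1.46 and Gfap had too few UMIs to be tested. The cause was not tested.

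In bulk, edgeR called 0 genes, DESeq2 349 and 0 to 1 were called with 1 library left out. The labels number the bulk replicates alike in both groups. Same-numbered TBI and sham libraries correlated at 0.352, 0.173 and -0.0297 in their deviations from the group means. Differently numbered ones correlated at -0.276 to 0.109. These values do not settle whether the numbers mark pairs. The main test took the libraries as unpaired, and with the replicate block 61 genes were called, so the count of 0 depends on this choice. The block was added after the data were seen, as were the alternatives without a Gad threshold or the deepest nucleus and, for the interaction, without glia-marked nuclei. The Npy share could not be computed under any setting. With 18 to 79 nuclei a rat, few of the genes had enough UMIs to test.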
